A study of Mus musculus with 12 samples.

Results

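The genes described here are the Zfp genes, a large group of mouse genes named for the zinc fingers in their proteins. Members were all genes whose symbol is Zfp followed by a number, with or without 1 closing letter, and which were present in both of the authors' deposited tables of RNA polymerase II (Pol II) comparisons. Zfp36 was left out, because it encodes an RNA-binding protein of another zinc finger type. This gave 86 genes of 6429 in the tables. RefSeq transcripts with a counted promoter window carried 391 symbols of this form, so 22.0% of them were in the tables, against 25.4% of all 25119 symbols with such a window. The other 305 Zfp genes were not analysed here.

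A zinc finger of the Cys2-His2 type is a short fold held by a zinc ion, and a row of such fingers reads DNA sequence. Many Zfp proteins also carry a KRAB domain, which recruits the corepressor KAP1 (Trim28) and with it histone methylation that silences retroelements and imprinted loci. Others act as promoter activators, corepressors, ubiquitin ligases or ribosome factors. Related Zfp genes often lie side by side as a result of repeated gene duplication, and their finger repeats can be nearly identical. Reads that map to several such copies are lost when a mapping quality is required, so the values of close copies are less certain.

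Pol II occupancy was measured by chromatin immunoprecipitation and sequencing in epithelium of the mouse duodenum. Each of 3 groups had 3 Pol II libraries by the labels: wild-type (WT) crypt, WT villus, and villus of mice labelled Hnf4 alpha and gamma double knockout (DKO). Stem and dividing cells of the lining sit in the crypts, villi carry mostly absorptive enterocytes, and HNF4A and HNF4G are transcription factors of this epithelium. DKO mice received tamoxifen at 50 mg/kg/day for 2 days and were killed 1 day later, and WT mice of both tissues received the oil vehicle without it. All tissue was treated with 3 mM EDTA, for 25 minutes in mutant and 35 minutes in WT mice, so genotype, tamoxifen and EDTA time cannot be told apart. Crypts passed a 70 µm filter and villi stayed on it. The driver of the recombination, the age of the mice and whether each library came from its own mouse are not given in the sources used here, so p-values measure the spread between these libraries, which may be technical.

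Each gene has a mean Pol II signal over all libraries, which is a count divided by size factors, and a log2 fold change with its standard error (SE, printed after ±). The window counted is not stated and the values are not divided by length. Depth per library is not known from these tables. A gene was called when its DESeq2 adjusted p, taken over all 6429 genes, was under 0.05. Positive changes mean more Pol II in WT villus. At the targeted genes the authors' deposited table had more Pol II in the villi labelled DKO, with -0.54 ± 0.14 at Hnf4a (adjusted p 4.84e-04) and -1.45 ± 0.22 at Hnf4g (7.81e-10), WT over DKO. Pol II over a gene does not show whether an exon was deleted, and this direction does not check the label, so the group is written as labelled-DKO throughout. All 19 enterocyte markers tested were called higher in WT villus in both of the authors' deposited tables. Of other markers tested, 3 of 5 crypt stem genes and both proliferation genes were called higher in crypt, and 2 of 5 stem and both proliferation genes higher in labelled-DKO villus. The stem gene Sp5 was called higher in WT villus in both. The summed signal of the 3 immune markers tested was 227 in crypt, 307 in WT villus and 210 in labelled-DKO villus, and no mesenchyme marker was tested. Of the 3, Cd74 alone was called, higher in WT villus at 0.72 ± 0.24 and 1.33 ± 0.24 in the authors' deposited tables, while Gzma (0.19 and -0.23) and Gzmb (-0.11 and -0.09) were not. Over the enterocyte markers the summed signals were 10578, 27407 and 8266. The part of such markers in the results below was not tested. A change in the mix of cells and a change in Pol II per cell cannot be told apart in these bulk samples.

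The Zfp genes differed little between the groups. Their mean signal ran from 32.4 at Zfp580 to 855 at Zfp827, with a median of 110 against 144 for all genes. Their median span, from the first to the last counted window, was 11392 bp, against 12280 bp for all genes with windows. Across the 86 members the mean signal followed the span, with a Spearman's rho of 0.864, and rho was 0.790 across the 6392 genes with windows. These points share their libraries. The signal is not divided by length, so the medians of 110 and 144 describe signal per gene and not density. No member had a log2 change beyond 1 in either of the authors' deposited tables. Of all 6429 genes 285 did between villus and crypt, all of them called (4.43%). Between the genotypes 560 did, of which 559 were called (8.69%). The middle 50% of members spanned 0.25 on the log2 scale for villus over crypt and 0.30 for WT over labelled-DKO villus. The same ranges for all genes were 0.47 and 0.60.

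Between WT villus and crypt, more Zfp genes carried extra Pol II in crypt than in villus. By the authors' deposited table, 27 of 86 members (31.4%) were called, against 37.4% of all genes. Of these, 22 (25.6%, against 18.8% of all genes) had more signal in crypt and 5 (5.81%, against 18.6%) had more in villus. The members' median log2 change was -0.14 and that of all genes -0.04, and 64 members (74.4%) lay below the median of all genes. After all changes were centred on that median, 20 members were called, against 35.9% of all genes. Of these, 14 (16.3%, against 14.8% of all genes) were higher in crypt and 6 (6.98%, against 21.1%) higher in villus. The crypt share was then near that of all genes, and the villus share remained the lower one. Before centring, 24.6% of the 57 members with a mean signal under the all-gene median were called, against 26.7% of the 3214 such genes. Of the 29 members at or over it 44.8% were called, against 48.0% of 3215 genes.

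**Figure D1:**
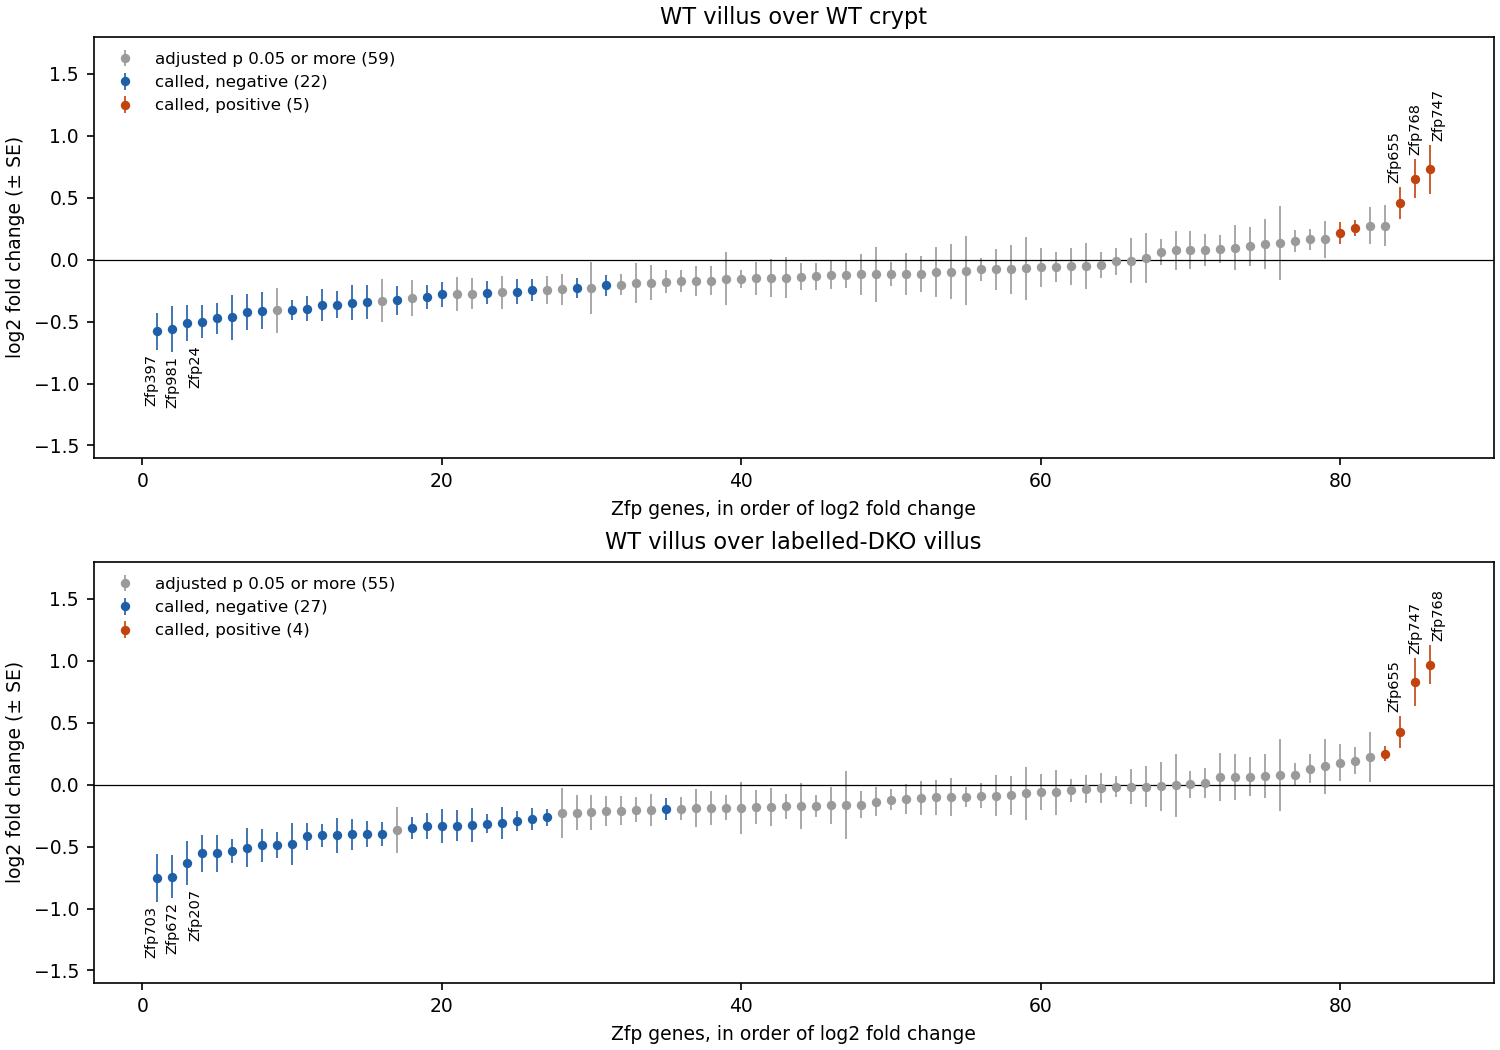
The 86 Zfp genes in order of log2 fold change (points, with bars of 1 SE on the vertical axis) for WT villus over crypt (top) and WT over labelled-DKO villus (bottom), from the authors' deposited tables. Called genes are coloured, with 22 negative and 5 positive at the top and 27 negative and 4 positive at the bottom, and Zfp768 and Zfp747 stand highest in both panels.

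The crypt-high genes were led by Zfp397, Zfp981, Zfp24, Zfp91, Zfp235 and Zfp553. To show levels, a mean signal was rebuilt for each group from its overall mean and the authors' deposited fold changes, with groups of equal size assumed. Zfp397 stood at 113 in crypt, 75.9 in WT villus and 111 in labelled-DKO villus. Its change in the authors' deposited table, villus over crypt, was -0.58 ± 0.15 (adjusted p 6.35e-04), and its windows overlap those of Zscan30. Zfp24, which is needed for myelination by oligodendrocytes, stood at 117, 81.9 and 109 in the same order. Its change was -0.51 ± 0.14 in the authors' deposited table (adjusted p 0.00184). In both genes the WT villus has the lowest rebuilt mean, and crypt and labelled-DKO villus lie close together. Both were named for low values in WT villus against crypt, so that part of the order is set by the choice.

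Zfp91, a ubiquitin ligase of the non-canonical NF-kappaB pathway, stood at 255 in crypt, 180 in WT villus and 252 in labelled-DKO villus. The authors' deposited table gives -0.50 ± 0.13 (adjusted p 8.40e-04) for villus over crypt. Its windows overlap Lpxn and Gm44505. Zfp981 had -0.56 ± 0.18 in the authors' deposited table (adjusted p 0.00920), and its windows overlap 1700095A21Rik. Those windows were read as minus strand, while the RefSeq promoter of Zfp981 in GRCm38.p6 is on the plus strand, so its locus is uncertain. Zfp235 had -0.47 ± 0.13 there (adjusted p 9.92e-04), and Zfp553, whose windows overlap Gm4532, -0.46 ± 0.18 (adjusted p 0.0322). Centring ended the call of Zfp553, with an adjusted p of 0.0555.

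The villus-high genes were Zfp747, Zfp768, Zfp655, Zfp710 and Zfp865. Zfp747 stood at 68.0 in crypt and 113 in WT villus, a 1.66-fold difference, with a log2 change of 0.73 ± 0.20 (adjusted p 0.00108) in the authors' deposited table. Zfp768, known to bind sequences derived from repeat elements, stood at 75.4 in crypt and 119 in WT villus, with 0.65 ± 0.16 (adjusted p 1.94e-04) in the authors' deposited table. Zfp655, a partner of the signalling protein Vav, had 0.46 ± 0.13 (adjusted p 0.00250) in the authors' deposited table. These changes differed from each other by less than the sum of their standard errors. Zfp710, whose windows overlap Gm21057, had a smaller change with a tighter error in the authors' deposited table, 0.26 ± 0.06 (adjusted p 3.60e-04). Zfp865 was close to the threshold there, at 0.22 ± 0.09 (adjusted p 0.0428).

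Between the genotypes, most called Zfp genes carried more Pol II in labelled-DKO villus. By the authors' deposited table, 31 members (36.0%) were called, against 51.9% of all genes. Of these, 27 (31.4%, against 29.5% of all genes) were higher in labelled-DKO villus and 4 (4.65%, against 22.4%) were higher in WT villus. The share higher in labelled-DKO villus was thus near that of all genes, and the share higher in WT villus was the lower one. The members' median change of WT over labelled-DKO villus was -0.17, against -0.08 for all genes, and 58 members (67.4%) lay below the median of all genes. After centring, 21 members (24.4%, against 22.1% of all genes) had more Pol II in labelled-DKO villus and 5 (5.81%, against 26.6%) had more in WT villus. The WT villus libraries serve in both tables, which ties the directions of the comparisons together. Of the 57 members with a mean signal under the all-gene median 24.6% were called between the genotypes, against 40.0% of the 3214 such genes, and of the 29 at or over it 58.6%, against 63.9% of 3215.

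**Figure D2:**
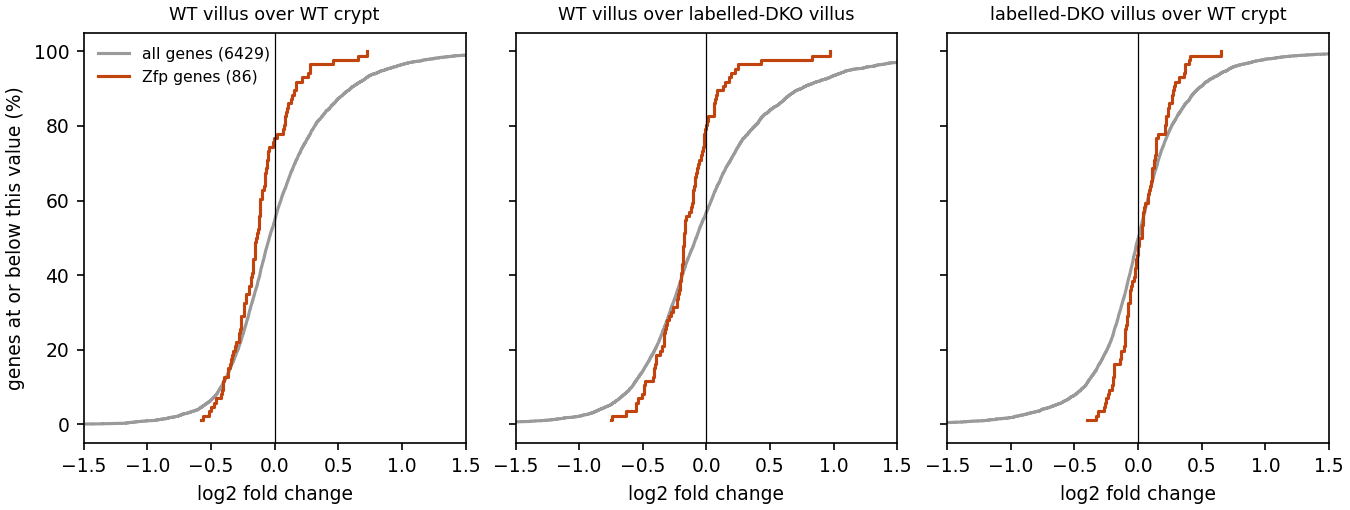
Cumulative share of genes (vertical axis, %) by log2 fold change (horizontal axis, shown from -1.5 to 1.5) for the 86 Zfp genes and all 6429 genes in the 2 deposited comparisons and in labelled-DKO villus over crypt. The medians of the Zfp genes are -0.14, -0.17 and 0.02, and their curves are steeper than those of all genes, with few members at large positive changes.

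Zfp703 and Zfp672 had the largest increases in labelled-DKO villus. Zfp703, a corepressor amplified in luminal breast cancer, stood at 55.3 in crypt, 51.6 in WT villus and 87.0 in labelled-DKO villus. The last rebuilt mean is the highest. Labelled-DKO villus over crypt was 0.65 ± 0.28 at Zfp703, not called by the Wald test described below (adjusted p 0.107). Its change of WT over labelled-DKO villus in the authors' deposited table was -0.75 ± 0.20 (adjusted p 4.28e-04), a 1.68-fold higher signal, while villus and crypt were not told apart (-0.10 ± 0.20, adjusted p 0.738). Zfp672 stood at 211, 167 and 280, with -0.74 ± 0.17 between the genotypes in the authors' deposited table (adjusted p 6.85e-05). Its windows overlap Sh3bp5l.

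Zfp207 (BuGZ), a spindle protein that loads Bub3 at kinetochores, stood at 225 in crypt, 169 in WT villus and 262 in labelled-DKO villus. In the authors' deposited table its change was -0.63 ± 0.18 between the genotypes (adjusted p 0.00130), and -0.41 ± 0.18 between villus and crypt, which did not pass (adjusted p 0.0587). Zfp143, an activator at promoters of small nuclear RNA and protein-coding genes, stood at 250, 208 and 302. It was called in both of the authors' deposited tables, with -0.54 ± 0.10 between the genotypes (adjusted p 3.78e-07) and -0.26 ± 0.10 between villus and crypt (adjusted p 0.0296). Centring ended the second call, with an adjusted p of 0.0763. Zfp330, a nucleolus-associated protein gene, stood at 136, 102 and 150, with -0.55 ± 0.15 between the genotypes in the authors' deposited table (adjusted p 5.58e-04). Zfp397 was again among the leading genes there, at -0.55 ± 0.15 (adjusted p 6.05e-04). In each of these genes WT villus is the lowest of the 3 rebuilt means. They were named for low values in WT against labelled-DKO villus, so that part of the order is set by the choice. The WT villus libraries also serve in both changes.

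The 4 members with more Pol II in WT villus by the authors' deposited table were Zfp768, Zfp747, Zfp655 and Zfp710. Zfp768 fell to 60.7 in labelled-DKO villus from 119 in WT villus, a 1.96-fold difference, with 0.97 ± 0.16 in the authors' deposited table (adjusted p 5.38e-09). Zfp747 fell to 63.4 from 113, with 0.83 ± 0.19 (adjusted p 8.24e-05) in the authors' deposited table. Zfp655 stood at 194 in WT villus and 144 in labelled-DKO villus, with 0.43 ± 0.13 (adjusted p 0.00257) in the same deposited table. Zfp710 stood at 650 and 546, with 0.25 ± 0.06 (adjusted p 2.84e-04) in that deposited table. Of the members, Zfp768 alone passed when the change had to exceed 0.5 (log2). Zfp865, called higher in villus than crypt, had -0.02 ± 0.08 between the genotypes in the authors' deposited table (adjusted p 0.882).

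**Figure D3:**
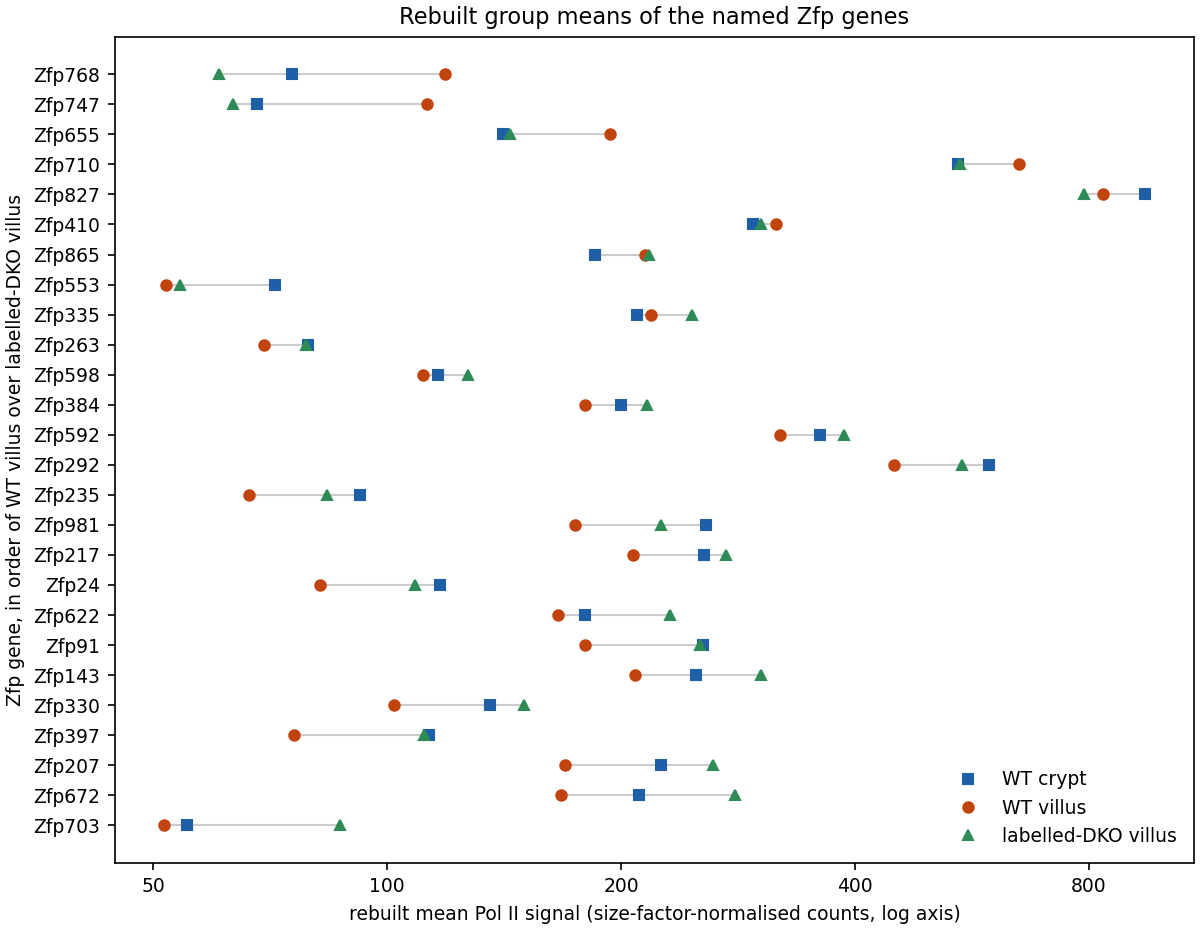
Rebuilt mean Pol II signal (horizontal log axis, size-factor-normalised counts) in WT crypt, WT villus and labelled-DKO villus for the 26 Zfp genes named by a set rule, in order of WT over labelled-DKO villus. WT villus is the right-most point of Zfp768 (119) and Zfp747 (113) and the left-most of Zfp397 (75.9) and Zfp91 (180).

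Labelled-DKO villus was then set against crypt, as the difference of the authors' deposited fold changes. Its SE was the root of their summed squared SEs, which makes no allowance for the WT villus libraries that both changes share. Those libraries cancel in the difference, so this SE is on the large side and gives fewer calls. By this Wald test with Benjamini-Hochberg adjustment 0 of 86 members were called, against 13.6% of all genes (6.41% higher in labelled-DKO villus and 7.19% higher in crypt). Without adjustment 7 of 86 members had a p under 0.05 by this test, against 1587 of all 6429 genes. Member changes of labelled-DKO villus over crypt ran from -0.40 ± 0.26 at Zfp553 to 0.65 ± 0.28 at Zfp703, with a median of 0.02. The smallest adjusted p was 0.0605, at Zfp687 (0.40 ± 0.15), whose windows overlap Pi4kb. Zfp687 forms a complex with Zfp592 around the chromatin reader Zmynd8. With the larger of the SEs alone in place of that sum, 9 members passed, 7 with more signal in labelled-DKO villus and 2 with more in crypt. That is 10.5% of members, against 29.4% of all genes (15.1% and 14.3% by direction). The 9 were Zfp143, Zfp219, Zfp385c, Zfp597, Zfp687, Zfp703 and Zfp865 on one side and Zfp629 and Zfp827 on the other. Windows of Zfp219 overlap Arhgef40 and Tmem253, and those of Zfp385c overlap Nkiras2. The count of 0 therefore rests on the SE chosen and does not show that the groups are alike.

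Members with better known roles were read in the same tables. Among regulators of transcription, Zfp217, a corepressor partner encoded in a region amplified in carcinomas, stood at 255 in crypt, 207 in WT villus and 273 in labelled-DKO villus. It was called in both of the authors' deposited tables, at -0.30 ± 0.10 (adjusted p 0.00924) and -0.40 ± 0.10 (adjusted p 2.17e-04). Zfp292, a large factor first described in pituitary cells, stood at 594, 449 and 550. Its deposited changes in the authors' tables were -0.40 ± 0.08 and -0.29 ± 0.08, both called. Zfp384, which binds AT-rich DNA, and Zfp592 were called between the genotypes alone in the authors' deposited tables, at -0.26 ± 0.07 (adjusted p 6.43e-04) and -0.28 ± 0.09 (adjusted p 0.00521). Whether their changes differ between the comparisons was not tested. Zfp384 overlaps 4930557K07Rik, and centring ended the call of Zfp592, with an adjusted p of 0.0573.

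Zfp335, a component of histone H3 lysine methyltransferase complexes, and Zfp263, a SCAN and KRAB factor, passed neither test in the authors' deposited tables. Zfp335 stood at 209, 219 and 247, and Zfp263 at 79.1, 69.4 and 78.7. Zfp410, the activator of the chromatin remodeller gene Chd4, stood at 295, 316 and 303, with adjusted p-values of 0.715 and 0.800 in the authors' deposited tables. Zfp827, which recruits the NuRD complex to telomeres and has the longest span of the members (164930 bp), stood at 943, 834 and 788. It passed neither test in the authors' deposited tables, at -0.18 ± 0.09 and 0.08 ± 0.09. Zfp445, which protects imprinted methylation together with KAP1 and was picked after its values were seen, stood at 169, 131 and 173 and was called in both of the authors' deposited tables, at -0.37 ± 0.13 and -0.40 ± 0.13.

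Other listed members act on the ribosome. Zfp622, a factor of large ribosomal subunit maturation, stood at 180 in crypt, 166 in WT villus and 231 in labelled-DKO villus. It was called between the genotypes in the authors' deposited table, at -0.48 ± 0.17 (adjusted p 0.0118). Zfp598, the ubiquitin ligase that marks collided ribosomes, stood at 116, 111 and 127 and passed neither test, with -0.06 ± 0.16 and -0.19 ± 0.15 in the authors' deposited tables. The difference between these genes was not tested.

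The members lay on 18 chromosomes, and 32 of them on chromosome 7. In the authors' mm9 coordinates 40 members lay within 500 kb of another member, in 13 groups, and 46 stood alone. Of the grouped members 3 (7.5%) were called higher in villus and 11 (27.5%) higher in crypt in the authors' deposited table. Of the lone ones 2 (4.35%) and 11 (23.9%) were, against 18.6% and 18.8% of all genes. Between the genotypes 8 grouped members (20%) were called higher in labelled-DKO villus, against 19 lone ones (41.3%) and 29.5% of all genes. In each set 2 were called higher in WT villus (5% and 4.35%, against 22.4% of all genes). Median signal was 98.9 for the grouped members and 147 for the lone ones. Of members under the all-gene median signal 24.6% were called between the genotypes, and 58.6% of the others. The part of signal in the difference between grouped and lone members was not tested. Neighbours differed from group to group. The 4 genes of a group on chromosome 8, from 72134053 to 72299160 (Zfp868, Zfp869, Zfp963 and Zfp866), had changes from -0.19 to 0.13 between the genotypes in the authors' deposited table, and none was called. Zfp397 and Zfp24, side by side on chromosome 18 from 24113089 to 24179664, were both called lower in WT villus in both of the authors' deposited tables.

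The largest group held 10 members on chromosome 7 from 134376475 to 135029010. Zfp768 (134485809 to 134489178) and Zfp747 (134515551 to 134519914) are neighbouring members there on the same strand, their starts 30.7 kb apart, and their windows overlap no other gene. Zfp764, the next member, whose start lies 61.5 kb from that of Zfp768, had -0.19 ± 0.16 and -0.09 ± 0.16 in the authors' deposited tables, and Zfp771 on the other side -0.12 ± 0.17 and -0.02 ± 0.17. Neither was called. Zfp688, Zfp689 and Zfp629 were not called either. Zfp553, at one end of the group and chosen above for its change, passed between villus and crypt alone. At the other end Zfp668, a gene linked to DNA repair, and Zfp646 start 865 bp apart on opposite strands, and the windows of Zfp646 overlap Prss53. Zfp668 was called higher in crypt, at -0.27 ± 0.09 (adjusted p 0.0156) in the authors' deposited table. Both passed between the genotypes with more Pol II in labelled-DKO villus, at -0.41 ± 0.09 (adjusted p 3.45e-05) and -0.33 ± 0.11 (adjusted p 0.00514) in the authors' deposited table.

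**Figure D4:**
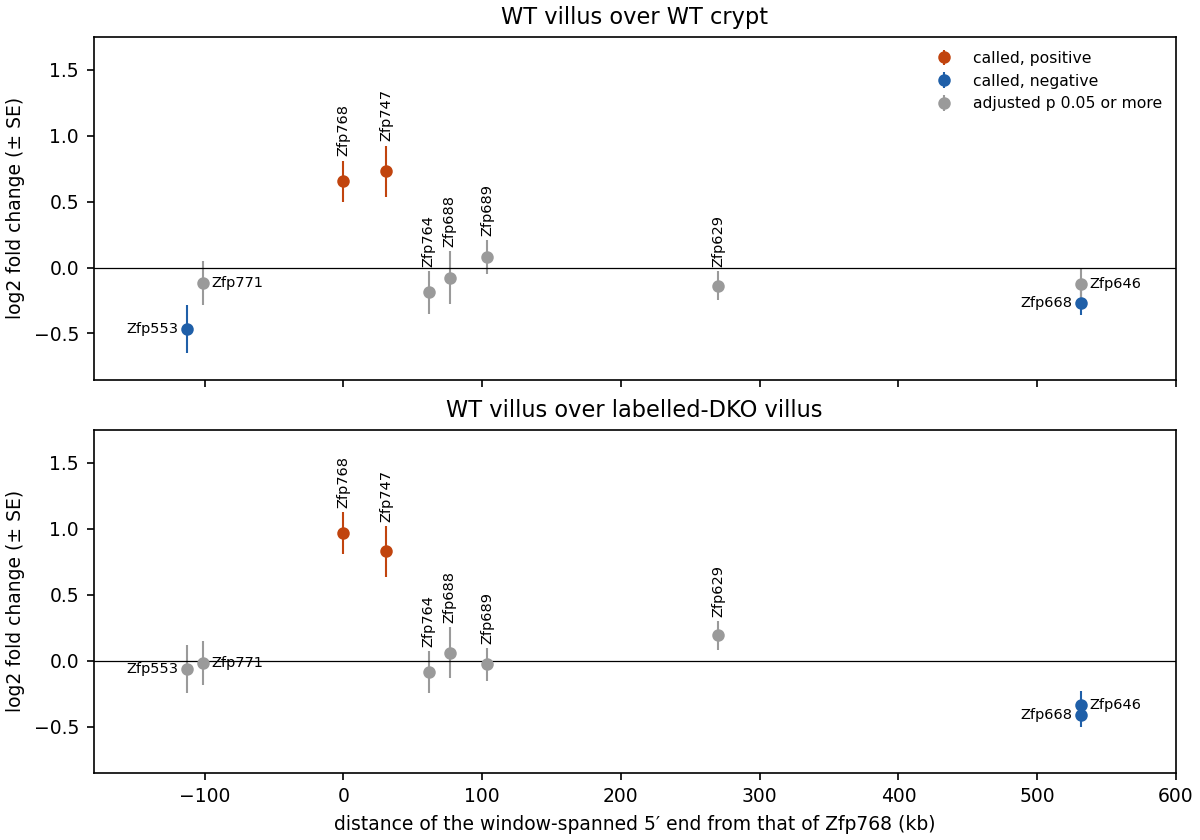
Log2 fold change (vertical axis, points with bars of 1 SE, from the authors' deposited tables) of the 10 Zfp genes of the chromosome 7 group by distance of their 5′ end from that of Zfp768 (horizontal axis, kb), for WT villus over crypt (top) and WT over labelled-DKO villus (bottom). Zfp768 and Zfp747, 30.7 kb apart, are the positive called genes in both panels, and Zfp668 and Zfp646 are negative and called at the bottom.

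The bases before the RefSeq start of this pair are shown because the neighbours that moved alike have unlike promoters. Both are from GRCm38.p6, minus strand, chr7:127345315-127345564 for Zfp768 and chr7:127376051-127376300 for Zfp747, written 5′ to 3′ up to the start site. Capitals mark GGGCGG (GC box) and CCAAT, read on either strand, so that CCGCCC and ATTGG are their reverse complements.
Zfp768: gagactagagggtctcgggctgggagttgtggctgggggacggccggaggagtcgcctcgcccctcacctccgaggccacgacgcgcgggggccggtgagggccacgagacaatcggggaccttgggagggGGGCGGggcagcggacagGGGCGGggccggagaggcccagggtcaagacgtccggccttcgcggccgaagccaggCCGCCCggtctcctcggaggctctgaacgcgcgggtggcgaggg
Zfp747: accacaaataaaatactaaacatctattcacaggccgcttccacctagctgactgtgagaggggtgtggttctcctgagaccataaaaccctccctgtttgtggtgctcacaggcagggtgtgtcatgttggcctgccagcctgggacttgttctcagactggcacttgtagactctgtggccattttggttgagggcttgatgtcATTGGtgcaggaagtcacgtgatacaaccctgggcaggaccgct

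The 250 bases of Zfp768 hold 29 CpG and 75.2% G or C, with 3 GC boxes at 119, 101 and 44 bases before the start. Those of Zfp747 hold 3 CpG and 52.0% G or C, with no GC box and 1 reversed CCAAT at 44 bases before the start. The HNF4-type motif CAAAGTCCA is in neither.

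Promoters, 250 bases before to 50 after the start, were matched in RefSeq (GRCm38.p6) for 72 of 86 members, which have 94 promoters. The median member promoter held 19 CpG, against 20 in the 6589 promoters of tested genes and 7 in all 32851 promoters. Motifs were searched on both strands. CCGGAAGT, a binding site of ETS factors, was in 12.8% of member promoters, 8.57% of those of tested genes and 3.89% of all. GGGCGG was in 47.9% of member promoters, against 62.1% and 35.7%, and CCAAT in 41.5%, against 37.8% and 37.4%. TATAAA was in 9.57%, against 8.12% and 13.6%. Matches of different motifs may overlap. The motif CAAAGTCCA was in 0 of 94 member promoters, against 0.668% and 0.475%. The NRF1, YY1 and ZNF143 motifs were in 3, 1 and 1 member promoters (3.19%, 1.06% and 1.06%), against 2.09%, 1.41% and 0.577% in promoters of tested genes and 0.971%, 0.633% and 0.286% of all. Such matches describe letters in the window and not binding.

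Of the matched genes that passed with more Pol II in labelled-DKO villus 7 of 23 held CCGGAAGT, against 3 of 45 not called and 1 of 4 called higher in WT villus. A gene counts here if any of its promoters holds the motif, unlike the shares per promoter above. The same count was not made over all genes tested. Other motifs were counted too, in both comparisons. Between villus and crypt CCGGAAGT was in 3 of 19 genes called higher in crypt and 7 of 49 not called. It was in 1 of 4 called higher in villus. Between the genotypes CCAAT was in 8, 26 and 2 of the same 23, 45 and 4 genes, and GGGCGG in 14, 23 and 2. The groups are small and none of these differences was tested. The upstream bases of Zfp207, Zfp143 and Zfp330, higher in labelled-DKO villus, are shown as examples of the motifs. Zfp207 is on the plus strand at chr11:80383029-80383278, Zfp143 on the plus strand at chr7:110061452-110061688, ended at its first RefSeq start, and Zfp330 on the minus strand at chr8:82774146-82774395, all in GRCm38.p6. Capitals mark a YY1 motif in Zfp207, CCAAT in Zfp207 and Zfp143, GGGCGG in Zfp143 and Zfp330, and the reverse complement of CCGGAAGT in Zfp330.
Zfp207: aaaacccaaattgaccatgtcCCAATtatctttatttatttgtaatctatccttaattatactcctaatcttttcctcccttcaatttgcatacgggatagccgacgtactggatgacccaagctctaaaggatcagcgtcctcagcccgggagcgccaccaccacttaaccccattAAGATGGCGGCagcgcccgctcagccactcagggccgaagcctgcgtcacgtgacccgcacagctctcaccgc
Zfp143: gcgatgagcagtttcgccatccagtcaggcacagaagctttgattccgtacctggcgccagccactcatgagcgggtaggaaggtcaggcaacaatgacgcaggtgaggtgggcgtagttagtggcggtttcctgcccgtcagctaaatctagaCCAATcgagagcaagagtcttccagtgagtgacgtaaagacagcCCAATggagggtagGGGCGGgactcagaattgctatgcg
Zfp330: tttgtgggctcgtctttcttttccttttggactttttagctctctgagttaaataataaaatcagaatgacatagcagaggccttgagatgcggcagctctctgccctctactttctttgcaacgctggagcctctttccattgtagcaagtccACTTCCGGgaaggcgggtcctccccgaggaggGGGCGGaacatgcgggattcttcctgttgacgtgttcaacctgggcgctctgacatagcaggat

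The YY1 motif of Zfp207 begins 73 bases before the start, and it is the single member promoter that holds one. Zfp143 has CCAAT at 83 and 39 bases and a GC box at 25 bases before its first start. Zfp330 has the ETS-type motif at 96 bases and a GC box at 64 bases before the start.

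Shared start regions can mix the signal of neighbours, since no use of strand was recorded. Windows of 22 members (25.6%) overlapped another gene, against 41.2% of the 6392 genes with windows. All 21190 minus-strand gene body windows in the authors' deposited positions reach 350 bp upstream of the start, while all 19858 on the plus strand begin 350 bp inside the gene, so minus-strand ends and spans given here hold that stretch. With minus-strand windows ended 350 bp inside the gene instead, 20 members (23.3%) overlapped another gene, against 37.5%, and Zfp672 and Zfp408 no longer did. By the authors' deposited tables, 9 of 47 plus-strand members (19.1%, against 16.8% of plus-strand genes) and 13 of 39 minus-strand members (33.3%, against 20.5%) were called higher in crypt. More Pol II in labelled-DKO villus was called for 13 (27.7%, against 29.2%) and 14 (35.9%, against 29.9%). Zfp981 counts as a minus-strand member here, though its RefSeq promoter is on the plus strand. The part of the window's position in these calls was not tested. A gene on the opposite strand started within 1000 bp upstream of 9 members (10.5%), against 17.3% of these genes. Zfp91 and Lpxn start 70 bp apart, and Zfp830, a splicing and cell cycle factor, starts 24 bp from Cct6b. Zfp408 and Arhgap1 start 327 bp apart and had -0.51 ± 0.16 and -0.23 ± 0.08 between the genotypes, both called in the authors' deposited table. Zfp319 and Usb1 start 473 bp apart and had -0.01 ± 0.20, not called, and -0.45 ± 0.11, called, in the same deposited table. Among the 64 members with no overlap 16 (25.0%, against 17.7% of all genes with no overlap) were called higher in crypt and 4 (6.25%, against 21.1%) in villus, by the authors' adjusted p in the deposited table. Between the genotypes 18 (28.1%, near the 29.1% of such genes) were higher in labelled-DKO and 3 (4.69%, against 25.2%) in WT villus.

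KAP1 and its silencing partners were read from a list of 28 genes, of which 11 were tested. Between villus and crypt 2 were called higher in crypt in the authors' deposited table (18.2%, near the 18.8% of all genes). In villus 1 was higher (9.09%, against 18.6%). Trim28, which encodes KAP1, had -0.47 ± 0.16 (adjusted p 0.0112) and Atf7ip, a cofactor of the methyltransferase Setdb1, -0.25 ± 0.06, while Chd3, a NuRD remodeller, had 0.53 ± 0.10, in the authors' deposited table. Between the genotypes 4 genes, Atf7ip, Chd4, Mta2 and Kdm1a, passed with more Pol II in labelled-DKO villus (36.4%, against 29.5% of all genes). Chd3 alone passed with more in WT villus (9.09%, against 22.4%), in the authors' deposited table. Trim28 did not pass that test, at -0.33 ± 0.16 (adjusted p 0.0721) in the authors' deposited table. The list's medians of -0.07 and -0.15 compare with -0.04 and -0.08 for all genes and -0.14 and -0.17 for the Zfp genes.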

How the data were processed

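Per the submitters' processing notes reads were handled with Bowtie2 2.2.6, SAMtools 0.1.19, Picard, deepTools 2.4.2, Subread 2.03 and DESeq2 1.36.0 with mm9. The roles and gene filter are not given in the sources used here. The authors deposited 2 DESeq2 results tables with, per the file headers, a mean signal (counts over size factors), log2 fold change, log2 standard error, Wald score, p-value and adjusted p-value for each of 6429 genes. Recomputing the Benjamini-Hochberg adjustment from the deposited p-values gave differences of at most 3.76e-07. The authors' other deposited tables, per the file headers from featureCounts 2.0.3, gave window positions and lengths in bp (unit other). Their 18 columns of counts have no names and were used in no step, so the depth per library was not analysed here.

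Transcripts were named through RefSeq (GRCm38.p6); 42872 of 44308 promoter windows matched. Group means assume unshrunken fold changes and groups of equal size. Labelled-DKO villus against crypt is the difference of the deposited changes, with the root of their summed squared standard errors. Python 3.11.15, pandas 2.3.3 and scipy 1.17.1 were used.

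Members, gene lists and tests were chosen with earlier results of these data known. Named genes are the up to 6 called members with the largest changes in each direction of each deposited table, the 6 with the highest mean signal, and 11 of 27 listed for a textbook role that were tested, 26 genes in all. Other named members were picked after their values were seen. Marker lists were enterocyte (19 of 20 tested), crypt stem (5 of 12), proliferation (2 of 12), immune (3 of 10), mesenchyme (0 of 7) and secretory (5 of 8). Of the secretory genes 2 were called higher in villus and 2 in crypt, and 2 higher in labelled-DKO villus.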

Additional observations from a re-analysis of the deposited data

How the results depend on the processing

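The size of change required moved the counts most. With a log2 change beyond 1, 0 members were called between villus and crypt and 0 between the genotypes, against 27 and 31. Of all genes 4.43% and 8.69% were called at this limit. When the change had to exceed 0.5 by test, there were 0 and 1 (Zfp768), against 3.92% and 9.91% of all genes. An adjusted p under 0.01 left 13 members between villus and crypt and 24 between the genotypes, all among those called before (15.1% and 27.9% of members, against 27.0% and 40.9% of all genes). For labelled-DKO villus against crypt, 0 became 9 with the larger standard error alone (10.5%, against 29.4% of all genes). For genes with mean signals from 100 upward it became 1 of 51 (Zfp687, 1.96%, against 18.9% of 4393 genes). Centring gave 20, 26 and 0 members (23.3%, 30.2% and 0%, against 35.9%, 48.7% and 13.7% of all genes), the same minimum gave 21 and 23 of 51 members in the deposited comparisons (41.2% and 45.1%, against 47.0% and 61.6% of 4393 genes), and genes without an overlap gave 20, 21 and 0 of 64 (31.2%, 32.8% and 0%, against 39.1%, 54.5% and 17.3% of 3761 genes). With minus-strand body windows ended inside the gene, a setting chosen after seeing the data, these were 20, 23 and 0 of 66 (30.3%, 34.8% and 0%, against 38.6%, 53.8% and 16.7% of 3995). The members' medians stayed below 0 after centring in both deposited comparisons, at -0.10 and -0.09. Of 326 recomputed values of named genes 76 no longer passed and 1 (Zfp207 between villus and crypt, mean signal of at least 100) newly passed, and the others kept their side of the threshold. No called value turned in direction, while 2 values that were not called did under centring, both between the genotypes: Zfp553 went from -0.06 to 0.02 and Zfp865 from -0.02 to 0.06. Of the 76, the limits on size of 1 and 0.5 gave 33 and 32.

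No paired analysis was possible because the comparison tables hold group results, and the columns of counts have no names. For the same reason no replicate was left out in turn, and the restriction to proteins with a Cys2-His2 motif was not run, because no protein sequences were used here. The median standard error between villus and crypt was 0.15 for members with a mean signal under the all-gene median and 0.10 for the others.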

Other observations

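Zinc finger families with other names were read in the same way, from lists picked by symbol. Of 17 BTB zinc finger genes (Zbtb) 4 were called higher in villus in the authors' deposited table (23.5%, against 18.6% of all genes). In crypt 1 was higher (5.88%, against 18.8%). Between the genotypes 2 passed in each direction (11.8%, against 22.4% higher in WT villus and 29.5% higher in labelled-DKO villus). The medians of these genes in the 2 comparisons were 0.01 and 0.03. Zbtb7b, a factor of lymphocyte lineage choice, had a villus over crypt change of 0.72 ± 0.27 in the authors' deposited table, and Zbtb38, which binds methylated DNA, one of -0.45 ± 0.11. Of 6 SCAN zinc finger genes (Zscan and Zkscan) Zkscan1 and Zscan26 were called, higher in crypt and higher in labelled-DKO villus. That is 33.3% of the 6 in each comparison, against 18.8% and 29.5% of all genes.

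The KLF and SP factors had changes from -0.55 to 1.79 between villus and crypt and from -1.61 to 2.75 between the genotypes in the authors' deposited tables. The symbol pattern also caught Sp100 and Sp110, nuclear body proteins of another kind, which were left out. Of the other 15 genes 4 were called higher in villus in the authors' deposited table (26.7%, against 18.6% of all genes). In crypt 2 were higher (13.3%, against 18.8%). Between the genotypes 7 had more Pol II in labelled-DKO villus (46.7%, against 29.5%) and 3 in WT villus (20.0%, against 22.4%). Klf4, a factor of differentiated epithelium, had 1.79 ± 0.23 and 1.07 ± 0.23, and Klf10, induced by TGF-beta, had -0.05 ± 0.20 and -1.61 ± 0.19, villus over crypt and WT over labelled-DKO villus, in the authors' deposited tables. In the comparison of labelled-DKO villus with crypt 6 of these 15 were called (40.0%, against 13.6% of all genes). Of the 6, 5 were higher in labelled-DKO villus (33.3%, against 6.41%). There 0 of 86 Zfp genes were called, a count that rose to 9 with the larger SE alone. The median signal was 218 for these 15 genes and 110 for the Zfp genes. The difference between the families was not tested.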
